A study of Bos taurus with 2 samples.

Results

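The 7 genes described here add, copy or remove methyl groups on cytosine: DNMT1 and UHRF1, DNMT3A and DNMT3B, and TET1, TET2 and TET3. They were taken by symbol from the deposited feature lists, where each of the 7 has 1 entry among 35643 features in both libraries. The study profiled single nuclei of the cow (Bos taurus) in 2 groups of 1 library each. The first group is the 3L_Blastoid, a blastocyst-like structure that self-assembles in a microwell from 3 cultured stem cell types: 8 bEPSC, 8 bXEN and 16 bTSC per microwell. The second is the day 8 Blastocyst. Both carry the genotype WT, and both were frozen before nuclei were isolated and loaded on a 10x Genomics droplet chip. The stem cells were freed of the iMEF feeder cells they grew on by sieving and by attachment of the feeders to gelatin. How many structures or embryos were pooled in a library is not given in the sources used here. With 1 library per group, no test across replicates was possible, and intervals on the values below cover counting error only.

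DNA methylation at CpG sites is copied to the new strand after replication by DNMT1, which UHRF1 brings to hemimethylated DNA. DNMT3A and DNMT3B are the de novo methyltransferases that place methyl groups on unmethylated DNA. The TET enzymes oxidise 5-methylcytosine, after which the mark is lost by dilution at replication or by base excision repair. In mammalian preimplantation development the genome loses most of the methylation of the gametes and regains it around implantation, more in the embryo proper than in the placental lineage.

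The blastoid library held 1957 barcodes with a median of 2012 unique molecular identifiers (UMIs, counted RNA molecules), and the blastocyst library 944 with a median of 6920. They had 1 barcode in common. After filtering, 1914 and 827 remained, with 7481886 and 6861558 UMIs. Clusters were made in each library without the 7 genes. In the blastocyst, 234 nuclei were trophectoderm-like (GATA2, GATA3, KRT8, KRT18), 398 hypoblast-like (GATA4, HNF4A, PDGFRA) and 72 epiblast-like. The epiblast-like cluster carried NANOG, SOX2, PRDM14 and LIN28B, and also the hypoblast markers HNF4A, SPARC and COL18A1, so its name is weak. A further 123 blastocyst barcodes were shallow (median 1783 UMIs), carried keratins and were kept apart. In the blastoid, 155 nuclei were trophectoderm-like (GATA2, GATA3, TFAP2C, TEAD4). Another 141, with a median of 10924 UMIs against 14467, were led by LMX1A, LDB2 and NLGN1 and stayed unnamed. Summed neural markers were at 857 CPM in them, ELAVL4 and SYT1 included, and at 97.0 CPM in the trophectoderm-like nuclei. Their part in the differences of this class was not tested. The other 1618 blastoid barcodes, 84.5% of those kept, had 15.7% of their UMIs from ribosomal protein genes against 2.51% in the trophectoderm-like nuclei, and a median of 1922 UMIs. They carried 10 trophectoderm markers, among them CDX2, KRT8, KRT18 and ASCL2, beside 8 hypoblast, 3 epiblast and 2 neural markers. GATA2 and GATA3 were not among the 10, and summed neural markers were at 538 CPM. The summed trophectoderm markers were at 13183 CPM in these barcodes and 4212 CPM in the trophectoderm-like nuclei. No blastoid cluster met the rule for an epiblast-like or hypoblast-like name, so the trophectoderm-like class is the named class that could be compared between the groups. Levels are given as CPM, the UMIs of a gene scaled to the usual total per class sum. In nuclear counts such as these, more nuclei with the RNA and more RNA per nucleus cannot be told apart from a class sum.

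The maintenance pair was higher in the blastoid. DNMT1, the maintenance methyltransferase, had 187.5 CPM in the whole blastoid library (95% interval 178 to 198) and 65.0 CPM in the blastocyst (59.1 to 71.3), a ratio of 2.88 (2.59 to 3.22). UHRF1, the factor that reads hemimethylated CpG and recruits DNMT1, had 53.2 CPM (48.1 to 58.7, 398 UMIs) in the blastoid and 3.93 CPM (2.59 to 5.73, 27 UMIs) in the blastocyst, a ratio of 13.5 (9.15 to 20.8). The intervals of the libraries did not overlap for either gene.

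By class, the DNMT1 level was 51.3 CPM in the trophectoderm-like, 65.5 in the hypoblast-like and 56.1 in the epiblast-like blastocyst nuclei, and the 3 intervals overlapped. It was 109 CPM (96.3 to 123) in the trophectoderm-like and 123 CPM in the unnamed deep blastoid nuclei, whose intervals also overlapped. The shallow blastocyst barcodes had 144 CPM, and the ribosomal-rich blastoid barcodes 286 CPM (268 to 306). Within each library the DNMT1 level was therefore highest where the barcodes were shallowest. Between the trophectoderm-like classes the ratio of blastoid to blastocyst was 2.12 (1.70 to 2.66). The share of ribosomal protein UMIs differed in the same direction, 2.51% against 0.749%. Without ribosomal and mitochondrial UMIs in the totals the log2 ratio of DNMT1 was 1.11 in place of 1.09. When only barcodes with at least 4000 UMIs entered, the whole-library log2 ratio of DNMT1 fell from 1.53 to 0.89, below the 2-fold mark. The ratio between trophectoderm-like classes also went under 2-fold, to a log2 ratio of 0.99 with those barcodes and of 0.71 when the shallow blastocyst cluster was counted as trophectoderm-like.

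UHRF1 had few UMIs in every blastocyst class. It had 9 UMIs in the trophectoderm-like, 10 in the hypoblast-like, 5 in the epiblast-like and 3 in the shallow barcodes, which gives 3.88, 3.02, 6.53 and 6.44 CPM with overlapping intervals. At the finer clustering (resolution 1.0), an unnamed cluster of 16 blastocyst nuclei with NANOG and SOX2 had 24.1 CPM (6.56 to 61.7) from 4 UMIs, an interval that reaches the blastoid levels. The blastoid had 31.8 CPM (25.1 to 39.7) in the trophectoderm-like, 66.9 CPM (55.7 to 79.6) in the unnamed deep and 61.4 CPM (53.0 to 70.6) in the ribosomal-rich class. The trophectoderm-like class was the lowest of these, and the intervals of the other two overlapped. Between trophectoderm-like classes the ratio was 8.19 (4.10 to 18.6), and it was called 2-fold or more higher in 12 of 13 alternative settings. In the exception it fell under the number of UMIs that setting asked for. The RefSeq gene table places ARRDC5 over part of UHRF1, and whether the counting used strand is not given in the sources used here. ARRDC5, an arrestin-domain gene, was counted at 9.22 CPM (69 UMIs) against 0.874 CPM (6 UMIs), again higher in the blastoid, so part of the UHRF1 UMIs cannot be told apart from it.

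Free RNA in the droplets could add UMIs to a class, and AFP, a yolk sac and liver secreted protein gene, was taken as a rough measure of it. AFP had 103 UMIs in the blastoid trophectoderm-like nuclei and 820 in the ribosomal-rich barcodes. UHRF1 had 77 and 194 UMIs in the same sums. The part of free RNA in the UHRF1 level was not tested.

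**Figure D1:**
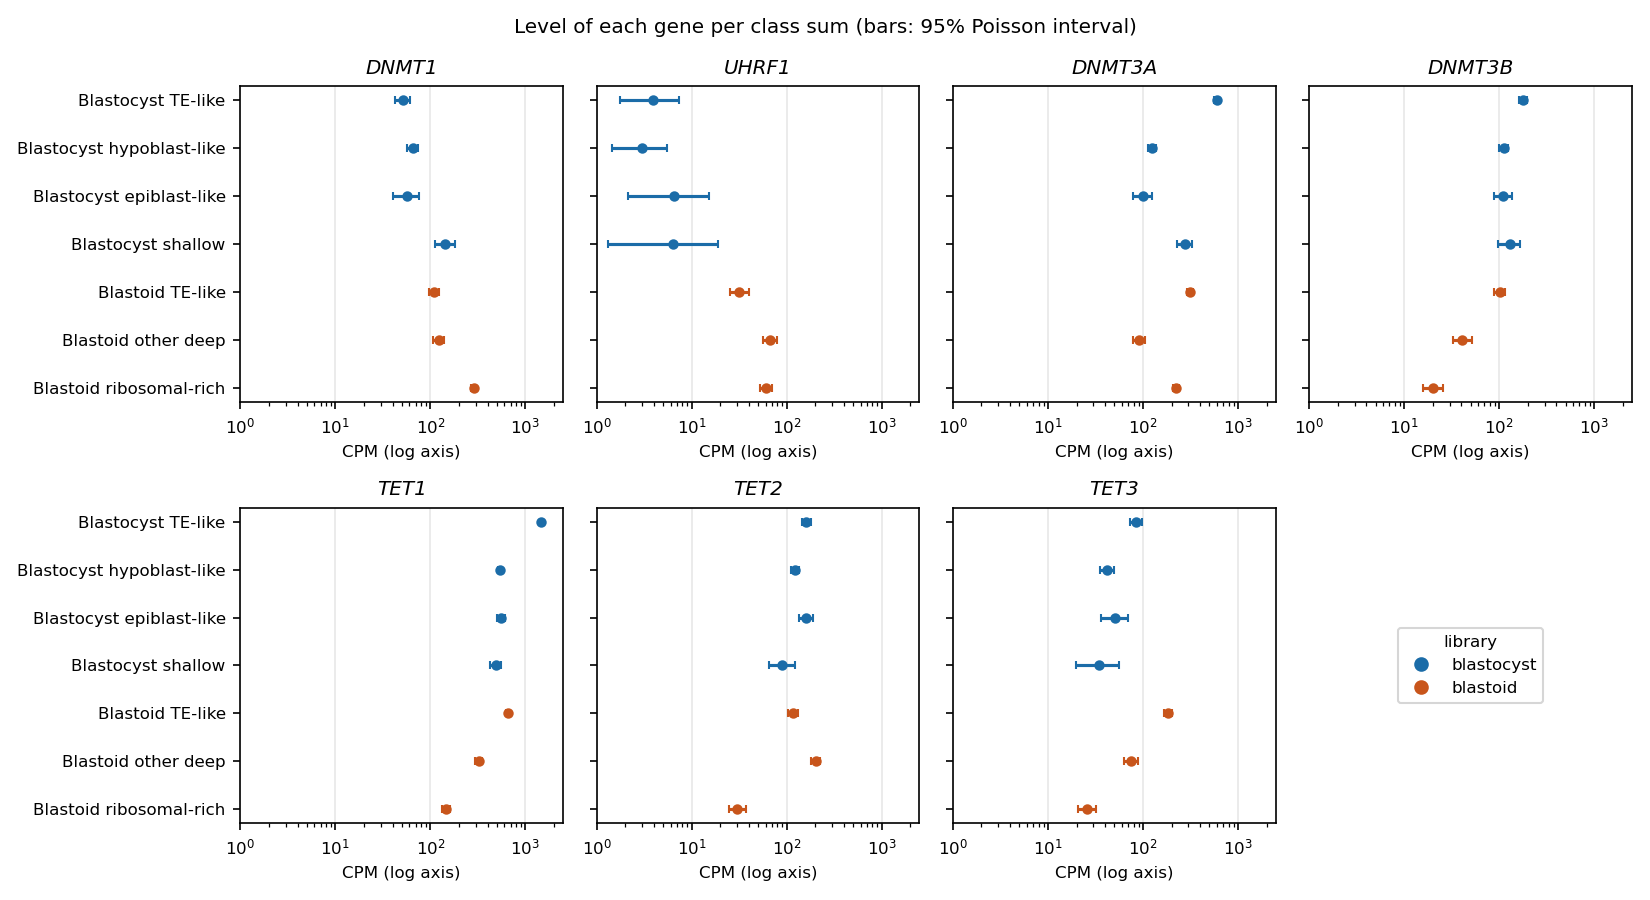
Level of each gene in CPM (log axis) in the 7 class sums of the blastocyst (blue) and the blastoid (orange); bars are exact Poisson 95% intervals, for counting error only, and TE stands for trophectoderm. UHRF1 lies at 3.02 to 6.53 CPM in the blastocyst classes and at 31.8 to 66.9 CPM in the blastoid classes, and DNMT3A and TET1 are highest in the blastocyst trophectoderm-like nuclei.

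DNMT3A, a de novo enzyme, was highest in trophectoderm-like nuclei of the blastocyst. It had 597 CPM there (566 to 629, 1383 UMIs), 124 CPM (113 to 137) in the hypoblast-like and 99.2 CPM (78.2 to 124) in the epiblast-like nuclei. The hypoblast-like level was 4.80-fold lower than the trophectoderm-like one (4.29 to 5.37), and the epiblast-like level 6.01-fold lower (4.77 to 7.68). The intervals of the hypoblast-like and epiblast-like nuclei overlapped. The same order held in the blastoid, where DNMT3A had 314 CPM (292 to 337) in the trophectoderm-like and 91.6 CPM (78.5 to 106) in the unnamed deep nuclei, which is 3.43-fold lower (2.91 to 4.07). All 13 alternatives left DNMT3A 2-fold or more lower in hypoblast-like than in trophectoderm-like blastocyst nuclei, and all 12 did so in the unnamed deep blastoid nuclei. The sizes moved: with lineage gates the hypoblast-like log2 ratio was -1.37 in place of -2.26, and with barcodes from 200 genes kept the epiblast-like one was -1.75 in place of -2.59. The ribosomal-rich barcodes had 225 CPM and the shallow blastocyst barcodes 275 CPM. In the shallow class 1 barcode held 55 of the 128 DNMT3A UMIs. Between the trophectoderm-like classes DNMT3A was 1.90-fold lower in the blastoid (1.74 to 2.08), short of the 2-fold mark.

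DNMT3B, the other de novo methyltransferase, had 135 CPM in the blastocyst library (127 to 144) and 51.6 CPM in the blastoid library (46.6 to 57.0), 2.62-fold lower (2.33 to 2.96). With only barcodes of at least 4000 UMIs the log2 ratio was -0.86 in place of -1.39 and under 2-fold. Its level was 180 CPM (163 to 198) in blastocyst trophectoderm-like nuclei, 111 CPM in the hypoblast-like and 109.7 CPM in the epiblast-like ones. The order of the first and second turned with the way nuclei were assigned: with gates on lineage markers, 23 hypoblast-like nuclei had 307 CPM (238 to 389) and 256 trophectoderm-like ones 177 CPM, a log2 ratio of 0.79 in place of -0.70. The epiblast-like ratio to trophectoderm-like turned as well, from -0.71 to 1.21 with barcodes from 200 genes kept, and was -1.69 at resolution 1.0. In the blastoid it was 101 CPM (88.5 to 114) in the trophectoderm-like, 41.1 CPM in the unnamed deep and 20.2 CPM (15.6 to 25.9) in the ribosomal-rich class, and these 3 intervals did not overlap. Between trophectoderm-like classes DNMT3B was 1.79-fold lower in the blastoid (1.52 to 2.10).

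Within the inner lineages of the blastocyst, DNMT3B was uneven from nucleus to nucleus. The 10% of hypoblast-like nuclei with the most DNMT3B UMIs held 59.8% of them, and the same part of epiblast-like nuclei held 66.7%. In trophectoderm-like nuclei that share was 41.7%. This share rises as UMIs fall. At a like number of UMIs in hypoblast-like nuclei (368 for DNMT3B) it was 45.9% for DNMT3A with 412 UMIs and 40.6% for TET2 with 404, and TET3, with 138, had 58.7%. At a finer clustering (resolution 1.0) the epiblast-like name went to a cluster of 141 nuclei with 55.3 CPM of DNMT3B (44.0 to 68.6). A separate cluster of 16 nuclei, which could not be named, had 337 CPM (255 to 438) and carried NANOG, SOX2, PRDM14 and LIN28B. DNMT3A was 163 CPM and TET1 891 CPM (753 to 1047) in those 16 nuclei. The log2 ratio of DNMT3B between epiblast-like and hypoblast-like nuclei was -0.02 at the main setting, -1.19 at resolution 1.0, -1.59 with lineage gates and 2.05 with barcodes from 200 genes kept, and no direction is read from it. The 79 hypoblast-like nuclei with a UMI of GATA4, the hypoblast transcription factor, had 209 CPM of DNMT3B (177 to 246), and the 319 without one had 84.0 CPM (73.2 to 95.9). Their median depths were 8350 and 7545 UMIs. This split was chosen after values were seen. The hypoblast-like class also carried SOX2, PRDM14 and OTX2 and held 317 nuclei at resolution 1.0 in place of 398, and whether the split follows clusters within it was not tested. TET1 was 645 CPM (587 to 706) in the nuclei with GATA4 and 505 CPM (478 to 533) in those without, and DNMT3A 162 CPM (134 to 194) against 114 CPM (101 to 128). The intervals of DNMT1, TET2, TET3 and UHRF1 overlapped, for UHRF1 on 3 and 7 UMIs.

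**Figure D2:**
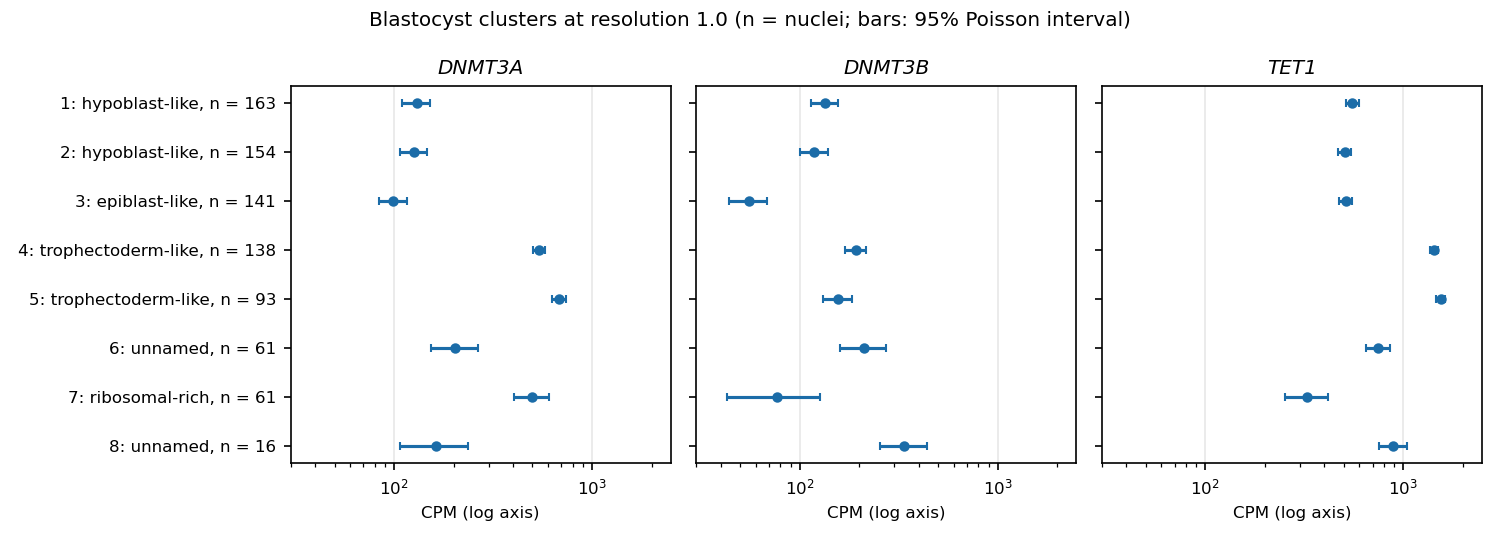
DNMT3A, DNMT3B and TET1 levels in CPM (log axis) in the 8 blastocyst clusters at resolution 1.0, with the number of nuclei beside each name and exact Poisson 95% intervals. DNMT3A and TET1 are high in both trophectoderm-like clusters, while DNMT3B is highest, at 337 CPM, in the unnamed cluster of 16 nuclei and lowest, at 55.3 CPM, in the epiblast-like one.

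TET1, the dioxygenase best known from pluripotent cells and from the inner cell mass of the mouse, was highest here in the named trophectoderm-like class of both libraries, and low in the ribosomal-rich barcodes that also carry trophectoderm markers. In the blastocyst it had 1478 CPM in trophectoderm-like (1429 to 1529), 535 CPM in hypoblast-like (510 to 561) and 552 CPM in epiblast-like nuclei (501 to 607). The level was 2.76-fold lower in the hypoblast-like nuclei (2.61 to 2.93), which was 2-fold or more in all 13 alternatives. It was 2.68-fold lower in the epiblast-like nuclei (2.42 to 2.97), in 8 of 9 alternatives. The exception, with barcodes from 200 genes kept, gave the epiblast-like name to 14 nuclei and a log2 ratio of -0.51. In the blastoid TET1 had 659 CPM in the trophectoderm-like (627 to 692), 323 CPM in the unnamed deep (298 to 349) and 147 CPM in the ribosomal-rich class (134 to 161). These 3 intervals did not overlap. The blastoid trophectoderm-like level was 2.24-fold below that of the blastocyst (2.11 to 2.38) and 2-fold or more below it in 12 of 13 alternatives. With the shallow blastocyst cluster counted as trophectoderm-like the log2 ratio was -0.99, which is just short of the mark. Over whole libraries TET1 was 2.38-fold lower in the blastoid (2.28 to 2.50), with a log2 ratio of -1.25, and -0.77 with only barcodes of at least 4000 UMIs.

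TET2, an oxidase without the CXXC DNA-binding domain of its relatives, differed least among the deep classes. It had 161 CPM in both the trophectoderm-like and the epiblast-like nuclei of the blastocyst and 122 CPM in the hypoblast-like ones. In the blastoid it was the only one of the TET genes that was higher outside the trophectoderm-like class, with 202 CPM (182 to 223) in the unnamed deep nuclei against 117 CPM (104 to 132). That ratio of 1.72 (1.47 to 2.01) stayed under 2-fold. The ribosomal-rich barcodes had 30.4 CPM (24.6 to 37.1).

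TET3, the oxidase that acts on the paternal genome of the zygote, was the TET gene that was higher in the blastoid. Its level was 184 CPM (167 to 202) in blastoid trophectoderm-like nuclei and 84.1 CPM (72.7 to 96.8) in those of the blastocyst, a ratio of 2.18 (1.84 to 2.60) that was 2-fold or more in all 13 alternatives. It had 41.7 CPM (35.0 to 49.2) in hypoblast-like and 50.9 CPM (36.2 to 69.6) in epiblast-like nuclei, 74.8 CPM (63.0 to 88.1) in the unnamed deep blastoid nuclei and 25.9 CPM (20.6 to 32.2) in the ribosomal-rich barcodes. Over whole libraries the ratio was 1.58 (1.39 to 1.80). With only barcodes of at least 4000 UMIs its log2 ratio was 1.20 in place of 0.66, and over 2-fold. The trophectoderm-like class had the highest TET3 level in each library, and the ribosomal-rich barcodes, which carry trophectoderm markers too, the lowest in the blastoid.

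Counted over the 7 genes, a change is called here where 2 class sums differ by 2-fold or more and hold 50 or more UMIs of the gene together. Between whole libraries, 2 of 7 were higher in the blastoid (DNMT1 and UHRF1) and 2 of 7 lower (DNMT3B and TET1). Of 14066 genes tested, 22.3% were called higher, 18.7% lower and 41% either way. Between trophectoderm-like classes 3 of 7 were higher in the blastoid (DNMT1, UHRF1 and TET3) and 1 of 7 lower (TET1), beside 15.6% and 11.6% of 9870 genes. The TET1 ratio exceeded that of 9.38% of those genes. UHRF1 reached 50 UMIs only through the blastoid, in both comparisons, so its place among the calls is a description. Within the blastocyst 3 of 6 tested genes were lower in hypoblast-like than in trophectoderm-like nuclei (DNMT3A, TET1 and TET3), and none was higher, beside 11.8% and 14.7% of 10454 genes. The DNMT3A ratio exceeded that of 4.24% of them. TET3 was 2.02-fold lower there, on the mark itself, and its log2 ratio ran from -1.14 to -0.86 over 13 alternatives. It was called in 8 of them, the 1.5-fold setting included. Settings that change only the UMIs or fold asked for a call leave the ratio as it is, so the 8 do not show a stable call. In epiblast-like nuclei 2 of 6 were lower than in trophectoderm-like ones (DNMT3A and TET1), beside 16.8% of 8265 genes, and none was higher, beside 13.1%; 29.9% were called either way. Epiblast-like and hypoblast-like nuclei differed in 0 of 6, beside 7.88% of 9340 genes (3.44% higher, 4.44% lower). Within the blastoid the unnamed deep nuclei had 4 of 7 lower than the trophectoderm-like ones (DNMT3A, DNMT3B, TET1 and TET3, by 2.04- to 3.43-fold) and 1 higher (UHRF1, 2.10-fold), beside 16.2% and 17.2% of 10104 genes. The ribosomal-rich barcodes had 4 of 7 lower (DNMT3B, TET1, TET2 and TET3) and DNMT1 higher, beside 38.1% and 23.2% of 10394 genes. Depth and ribosomal share differed widely in that comparison (median 1922 against 14467 UMIs, and 15.7% against 2.51%), and their part in it was not tested. Scaling by the median ratio in place of the total moved all log2 ratios by 0.19 or less between the libraries, between the trophectoderm-like classes and in the unnamed deep class, by 0.13 and 0.21 for the hypoblast-like and epiblast-like ratios to trophectoderm-like, and by 0.55 for the ribosomal-rich barcodes.

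**Figure D3:**
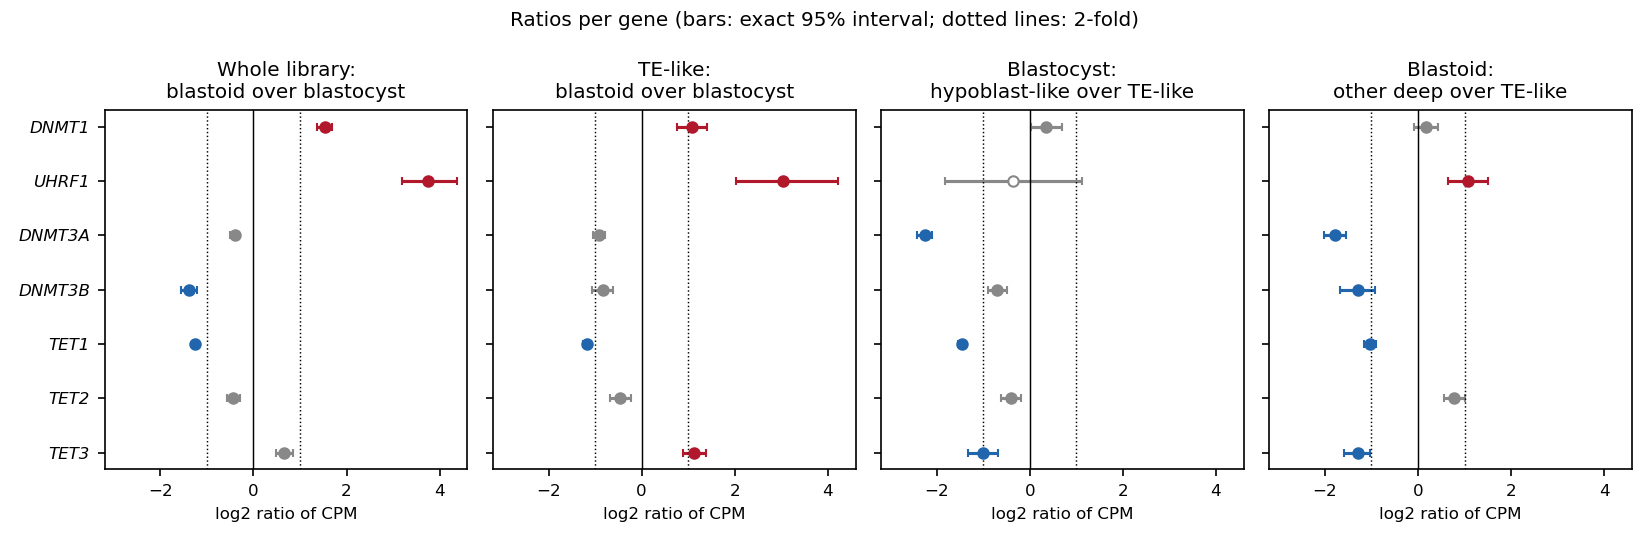
Log2 ratio of CPM for each gene in 4 comparisons, with exact 95% intervals for counting error; red points are 2-fold or more higher, blue points 2-fold or more lower, grey points neither, the open point has under 50 UMIs, and dotted lines mark 2-fold. UHRF1 and DNMT1 are to the right and TET1 to the left in both comparisons of blastoid and blastocyst, while DNMT3A, TET1 and TET3 lie to the left in both comparisons within a library.

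Ratios of UMIs between partners of a family show the shift in balance from class to class. Only the shift is read, since different genes differ in length and priming. The ratio of DNMT3A to DNMT3B was 3.32 (2.97 to 3.71) in the trophectoderm-like nuclei of the blastocyst and 3.12 (2.70 to 3.62) in those of the blastoid. Between these 2 classes the balance of the de novo enzymes differed by less than the counting error. The ratio was 11.1 (8.58 to 14.6) in the ribosomal-rich blastoid barcodes, which also carry trophectoderm markers. It was 2.23 (1.70 to 2.95) in the unnamed deep nuclei and 2.13 (1.56 to 2.95) in the shallow blastocyst barcodes. In hypoblast-like nuclei it was 1.12 (0.970 to 1.29). The ratio of UHRF1 to DNMT1 was 0.0756 (0.0338 to 0.148) in the blastocyst and 0.292 (0.223 to 0.377) in the blastoid trophectoderm-like nuclei, and 0.543 (0.434 to 0.676) in the unnamed deep nuclei. The balance of TET1 and TET3 differed between the groups too. TET1 had 17.6 UMIs per TET3 UMI (15.2 to 20.4) in the blastocyst and 3.59 (3.23 to 3.99) in the blastoid trophectoderm-like nuclei. It was 12.8 (10.8 to 15.4) in the hypoblast-like and 10.8 (7.80 to 15.5) in the epiblast-like nuclei, and 4.32 (3.59 to 5.22) and 5.67 (4.48 to 7.26) in the unnamed deep and ribosomal-rich blastoid classes. Each blastocyst class had a higher TET1 to TET3 ratio than each blastoid class, and no interval of the first overlapped one of the second. The ratio of TET2 to TET3 was 1.92 (1.61 to 2.29) and 0.638 (0.548 to 0.742) in the trophectoderm-like nuclei of blastocyst and blastoid. In the unnamed deep blastoid nuclei it was 2.70 (2.22 to 3.29), which overlapped the hypoblast-like value of 2.93 (2.41 to 3.58), so this ratio did not separate the groups.

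The share of nuclei with a UMI gives the same levels nucleus by nucleus. Each nucleus was thinned to 2000 UMIs, since deeper nuclei show more genes. Shallower barcodes were left out: 3 trophectoderm-like, 8 hypoblast-like and 63 shallow ones in the blastocyst, and 4 trophectoderm-like, 1 unnamed deep and 936 ribosomal-rich ones in the blastoid. TET1 was then seen in 90.9% of blastocyst trophectoderm-like nuclei (exact binomial interval 86.4 to 94.3) and in 62.3% of those of the blastoid (54.0 to 70.0), against 99.6% and 96.1% before thinning. DNMT3A was seen in 66.2% (59.7 to 72.3) and 45.0% (36.9 to 53.3), against 98.3% and 89.0% before. In hypoblast-like nuclei the thinned DNMT3A share was 20.5% (16.6 to 24.9). TET3 was seen in 12.6% (8.57 to 17.5) of blastocyst and 29.8% (22.6 to 37.8) of blastoid trophectoderm-like nuclei, against 50.4% and 80.0% before. The shares of TET1, DNMT3A and TET3 in these 2 classes did not overlap within their intervals, and their directions were those of the levels.

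For the maintenance genes the thinned shares said less. DNMT1 was seen in 9.09% (5.72 to 13.6) and 16.6% (11.01 to 23.5) of blastocyst and blastoid trophectoderm-like nuclei, and these intervals overlapped. UHRF1 was seen in 2 of 231 and 8 of 151 of them, 0.866% (0.105 to 3.09) and 5.30% (2.31 to 10.2), which overlapped too. Before thinning, the UHRF1 shares were 2.99% and 34.2%, at median depths of 8776.5 and 14467 UMIs. As a measure of background, GATA2 was seen in 1.54% of hypoblast-like against 60.2% of trophectoderm-like blastocyst nuclei, and AFP in 8.61% of trophectoderm-like against 40.8% of ribosomal-rich blastoid barcodes. The UHRF1 share in blastoid trophectoderm-like nuclei lay under that AFP share. UHRF1 was seen in 11.1% of ribosomal-rich barcodes, fewer than AFP, so shares of the 2 genes are not on 1 scale. The comparison cannot tell free RNA from expression, and no expression in this class is read from the share. In the unnamed deep nuclei UHRF1 was seen in 11.4% (6.68 to 17.9), GATA2 in 8.57% (4.51 to 14.5) and AFP in 5.71% (2.50 to 10.9), with overlapping intervals, so no expression is read from that share either.

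**Figure D4:**
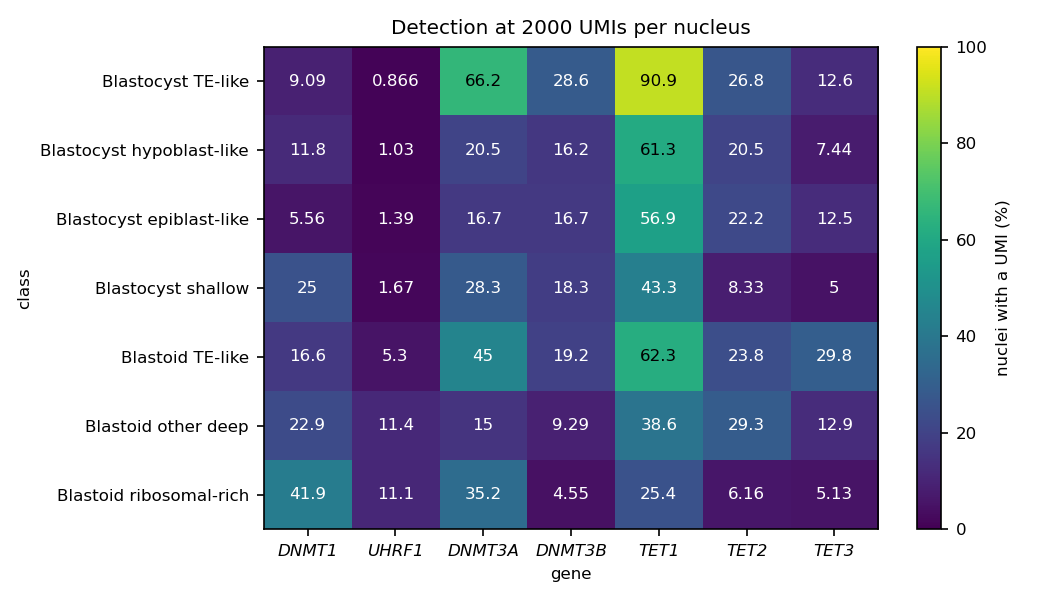
Percent of nuclei with at least 1 UMI of each gene after thinning to 2000 UMIs per nucleus, for the 7 classes; colour and number give the same value. TET1 runs from 90.9% in blastocyst trophectoderm-like nuclei to 25.4% in ribosomal-rich blastoid barcodes, and UHRF1 lies between 0.866% and 1.67% in the blastocyst classes.

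Of 20 cofactors and regulators of the writers, 19 had enough UMIs between the libraries, with 2 higher in the blastoid and 4 lower, beside 22.3% and 18.7% of all genes, so the counts do not stand above the background. The list had a median log2 ratio of -0.37 (all genes, -0.11). Between trophectoderm-like classes it was 2 higher and 3 lower of 18, beside 15.6% and 11.6% of all genes, with a median of 0.01 (all genes, 0.05). DPPA3, the maternal factor known to keep UHRF1 off chromatin, had 69.5 CPM in the blastocyst (477 UMIs) and 0.802 CPM in the blastoid (6 UMIs), 86.7-fold lower (39.5 to 237). In blastocyst trophectoderm-like nuclei DPPA3 had 30.6 CPM and in hypoblast-like ones 89.7 CPM, while each blastoid class held 2 UMIs of it. DPPA3 and UHRF1 differed in opposite directions between the libraries. DPPA3 reached the UMIs asked for a call only through the blastocyst library, and UHRF1 only through the blastoid library. Their opposite directions are therefore a description, and no relation between DPPA3 and UHRF1 was tested. Within the blastocyst, UHRF1 had 3.02 CPM in hypoblast-like and 3.88 CPM in trophectoderm-like nuclei, with overlapping intervals. DNMT3L, the catalytically inactive partner of the de novo enzymes, had 0 UMIs in both libraries, which at the limit of 3 counts allows up to 0.437 CPM in the blastocyst and 0.401 CPM in the blastoid. The clamp PCNA, which ties DNMT1 to the replication fork, was 4.07-fold higher in the blastoid library (3.47 to 4.79), and the ligase LIG1, a binding partner of UHRF1, was 2.81-fold lower (2.53 to 3.12). The histone methyltransferase EHMT2 was the other one higher, and NSD1 and MORC3 the others lower. EHMT2 was higher, and DPPA3, LIG1 and MORC3 were lower, between trophectoderm-like classes too. Among those nuclei CDCA7, which works with the remodeller HELLS, was 2.69-fold higher in the blastoid (1.95 to 3.75). UHRF2, the paralogue of UHRF1, was 126 CPM in the blastoid and 140.3 CPM in the blastocyst, a ratio of 0.90 (0.822 to 0.985), and did not share the UHRF1 difference.

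Among 20 eraser partners and base excision repair genes 18 were tested between the libraries, with 5 higher, 1 lower and a median log2 ratio of 0.18, beside 22.3% and 18.7% of all genes, and the 5 are near that share. Those higher were NEIL2, APEX1, IDH2, CXXC4 and CXXC5, and the 1 lower was OGT, the sugar transferase that binds the TET proteins. CXXC4, a regulator that binds TET2, was counted 136 times in the blastoid and 3 times in the blastocyst library, a ratio of 41.6 (13.9 to 204). Between trophectoderm-like classes APEX1, the abasic site nuclease, was 2.37-fold higher (1.40 to 4.14) and GADD45A, a demethylation-linked stress gene, 2.27-fold lower (1.62 to 3.22). They were the 1 higher and the 1 lower of 16 tested, beside 15.6% and 11.6% of all genes, so the counts do not stand above the background. Within the blastocyst 3 of 16 were lower in hypoblast-like than in trophectoderm-like nuclei and 1 was higher, beside 11.8% and 14.7% of all genes, and the list median was 0.31 (all genes, 0.21). GADD45A, GADD45B and GADD45G were lower by 2.24-, 3.48- and 3.78-fold, and APEX1 was 2.03-fold higher (1.22 to 3.52).

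Of 11 readers of CpG sites, all tested between the libraries, 1 was higher and 3 lower, with a median log2 ratio of -0.48, again beside 22.3% and 18.7% of all genes. ZBTB4 was the 1 higher, and KDM2B and KDM2A were among those lower. KDM2A, a demethylase that binds unmethylated CpG, was 6.92-fold lower in the blastoid library (6.41 to 7.48) and 5.50-fold lower in its trophectoderm-like nuclei (4.90 to 6.18). It was the 1 called of 8 readers between trophectoderm-like classes, beside 15.6% of all genes higher and 11.6% lower, and so is near the background. Of 16 one-carbon and methionine cycle genes tested between the libraries, 2 were higher and 4 lower, beside 22.3% and 18.7% of all genes. The list median was -0.26. SHMT2 was among those higher, and AHCYL2, MTHFD1L and GNMT among those lower. Between trophectoderm-like classes SHMT2 was higher, and MTHFD1L and GNMT lower, of 15 tested, beside 15.6% and 11.6% of all genes. The mitochondrial folate enzyme MTHFD1L was 6.09-fold lower (5.55 to 6.70), and 5.91-fold lower between trophectoderm-like classes (5.14 to 6.81). SHMT2 was 2.48-fold higher (1.99 to 3.11). GNMT, which uses up S-adenosylmethionine, had 61 UMIs in blastocyst and 2 in blastoid trophectoderm-like nuclei, 31.9-fold lower (8.45 to 269).

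Germline genes that promoter methylation is known to silence were mostly counted in the blastocyst. A gene with few UMIs in the blastoid reached 50 UMIs only through the blastocyst, so the counts and medians of this list are a description and support nothing. Of 15 listed, 14 matched and 10 tested between the libraries, 7 were lower in the blastoid and none was higher, beside 18.7% and 22.3% of all genes, with a median log2 ratio of -3.26. Among trophectoderm-like nuclei 3 of 6 were lower (TDRD1, RNF17 and ASZ1) and none was higher, beside 11.6% and 15.6% of all genes, with a median of -1.89. TDRD1, a piRNA pathway scaffold, had 78.4 CPM in the blastocyst and 2.00 CPM in the blastoid library, 39.1-fold lower (23.5 to 70.4), and ASZ1 39.1 and 2.00 CPM, 19.5-fold lower (11.6 to 35.3). DDX4, MAEL, BRDT, RNF17 and MOV10L1 were the others called. Within the blastocyst TDRD1 was 6.01-fold (4.45 to 8.28) and BRDT 3.14-fold (2.08 to 4.87) higher in hypoblast-like than in trophectoderm-like nuclei. Methylation was not measured, and no relation between these genes and the writers was tested. S phase genes, which DNMT1 and UHRF1 often accompany, had medians near those of all genes. Of 35 tested between the libraries 6 were higher and none was lower, with a median of -0.17, beside 22.3% and 18.7% of all genes. The 6 were MCM5, CDT1, RFC3, E2F8, FEN1 and WDR76. Between trophectoderm-like classes 3 of 33 were higher (CDT1, EXO1 and WDR76) and none was lower, with a median of 0.14, beside 15.6% and 11.6%. The summed S phase level was 2272 CPM in blastoid and 2104 CPM in blastocyst trophectoderm-like nuclei.

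**Figure D5:**
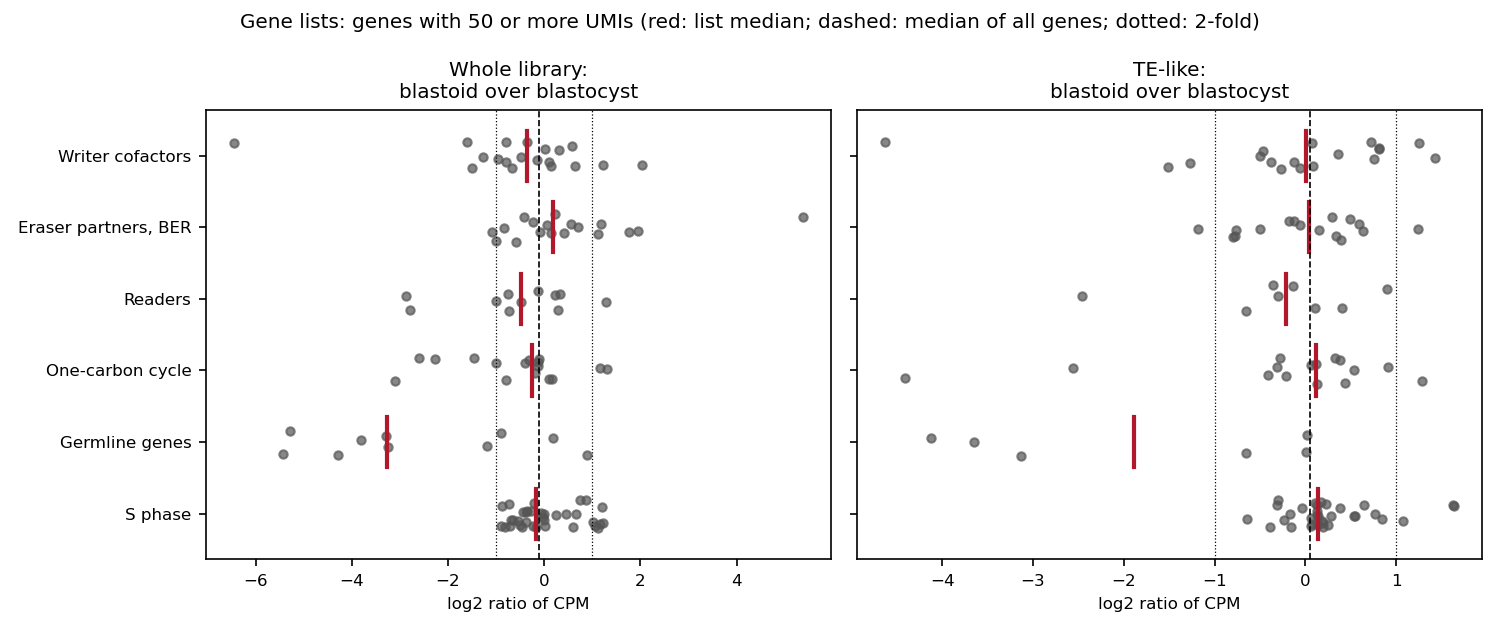
Log2 ratio of blastoid over blastocyst for each gene of 6 lists with 50 or more UMIs, between whole libraries (left) and between trophectoderm-like classes (right); red bars are list medians, the dashed line the median of all genes and dotted lines 2-fold. The germline list has medians of -3.26 and -1.89, over genes that passed mainly through the blastocyst, and the other 5 list medians lie between -0.48 and 0.18.

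Over the 7 class sums, the genes whose log2 level followed each member most closely among 7094 searched were found by Pearson r. They are a description over 7 points that share libraries, depth and ribosomal share. For DNMT1 the closest was MKI67, a proliferation marker, with r of 0.998, followed by the ribosomal protein genes RPS29 and RPS23. MKI67 itself ran from 39.3 CPM in blastocyst trophectoderm-like nuclei to 234 CPM in the ribosomal-rich barcodes. The closest to DNMT3A were MCOLN2, GCLM and SELENOI, to DNMT3B NRDE2, MSL2 and PLEKHG3, and to UHRF1 ZFP36L1, RTN3 and CISD2. TET1 was followed by CAPZB, CDR2L and NUP214, TET2 by SHLD2, CYLD and CRADD, and TET3 by EXOC6B, TMEM178B and GRK5. Among the members themselves the highest r was 0.923, between DNMT3B and TET1, and the lowest was -0.844, between DNMT1 and TET1.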

How the data were processed

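Single-nucleus RNA was measured in 1 blastoid and 1 blastocyst library. The deposited values are UMI counts per feature and barcode, and per the file headers the authors ran Cell Ranger 7.2.0. Per the submitters' processing notes, Cell Ranger 7.1.0 and Seurat 4.3.0 were used. Genome build, intron and strand settings are not given in the sources used here. No reads were used and no sequence is shown.

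Barcodes with at least 500 genes and under 10% mitochondrial UMIs were kept, and 30 blastoid and 6 blastocyst barcodes with the highest Scrublet scores were removed (0.8% per 1000 barcodes). The filters left out 43 blastoid and 117 blastocyst barcodes in all. Each library was clustered with scanpy 1.11.5 and leidenalg 0.10.2 (2000 variable genes without the members, lists and markers, 30 components, 15 neighbours, resolution 0.5). A marker counted with 100 UMIs and 1.5 times the CPM of other clusters. A name needed 3 markers and 2 times those of any other class, or more than any other class with 1 among the 10 leading genes. The second route, the limit of 5% ribosomal protein UMIs and the separate shallow cluster (median UMIs under the library median divided by 3) were set after names had been seen.

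UMIs were summed per class and given as CPM with exact Poisson 95% intervals and exact conditional intervals on ratios (scipy 1.17.1). A change was called from 50 UMIs and 2-fold. A list median sets counts under 3 to 3. Shares were computed at 2000 UMIs per nucleus. Genes named are the 7 members, genes of 6 lists (117 of 119 matched) called between blastoid and blastocyst, some of those called within the blastocyst (some called genes are not reported here) and, per member, the 3 with the highest r. Cluster markers and leading genes, AFP, the GATA4 split and ARRDC5 were added, and UHRF2 and DNMT3L, which were not called, were picked from the lists after values were seen. The members and lists were chosen with earlier results of these data known. Gene names and overlaps came from the RefSeq table of assembly ARS-UCD2.0. The steps were tested on simulated data.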

Additional observations from a re-analysis of the deposited data

Results flagged for a closer look

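The filters left out 43 blastoid and 117 blastocyst barcodes, with 93509 and 167695 UMIs, which entered no comparison. Member UMIs were above the limit of 3 counts for 5 genes in the left-out blastoid barcodes: DNMT1 had 17, DNMT3A 16, DNMT3B 4, UHRF1 7 and TET1 15. In the left-out blastocyst barcodes 6 genes were above it: DNMT1 had 27, DNMT3A 43, DNMT3B 16, TET1 59, TET2 9 and TET3 6. UHRF1 had 0 UMIs in the blastocyst ones and 74.9 CPM (30.1 to 154) in the blastoid ones, the same direction as among the kept barcodes.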

How the results depend on the processing

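Of 195 alternative values for counts of called genes, shares and partner ratios, 178 stayed near the main value (counts within 1.5 times). Of 560 log2 ratios of single members, 508 stayed within the interval of the main one, and 0 reversed a call. Settings that change only the UMIs or fold asked for a call leave every ratio as it is, and cluster settings leave the whole-library ratios. Such values are among the 508 without being tested. A gene called neither way at the main setting could not reverse. DNMT3B in epiblast-like over trophectoderm-like nuclei was such a gene, called higher in 1 alternative and lower in 2. The counts of called genes that follow moved. In ribosomal-rich barcodes, 2 members were higher in place of 1 with at least 1000 genes, with median-ratio scaling, without ribosomal and mitochondrial UMIs, and at 1.5-fold. Between whole libraries, 0 were lower in place of 2 with at least 4000 UMIs. The count of 2 higher stayed at that setting, but with TET3 in place of DNMT1. Between trophectoderm-like classes, 3 were lower at 1.5-fold, and 0 with the shallow cluster kept in its class, an alternative chosen after seeing the data. In epiblast-like over trophectoderm-like nuclei, 4 were lower in place of 2 at resolution 1.0 and at 1.5-fold, and 1 was lower and 1 higher with at least 200 genes. In epiblast-like over hypoblast-like nuclei, 2 were higher with at least 200 genes, 1 was lower at resolution 1.0 and 2 were lower with lineage gates, in place of 0. In the unnamed deep nuclei 2 were higher at 1.5-fold. A mark of 1.5-fold also calls more of all genes. Those shares are not given here, so no change of the members is read from the counts at 1.5-fold. With median-ratio scaling between libraries, 0 eraser partners were lower and 1 germline gene was higher. The cause was not tested. The epiblast-like class had no value with at least 1000 genes, at least 4000 UMIs, no doublet removal or the looser marker rule. No paired analysis was possible because each group had 1 library. Nearly all thinned nuclei held S phase UMIs, so the shares of members with and without them rest on few nuclei without and are not read. The blastocyst sum of UHRF1 held 27 UMIs, which sets the width of its intervals.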
